A study of Homo sapiens with 10 samples.

Results

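The genes described are 31 listed genes of the p53 pathway, found by symbol among the 56303 rows of the gene count files: feedback regulators of p53 and targets that arrest the cell cycle, alter metabolism, repair DNA or favour cell death. Genes of the BCL2 family were left out of the list. All 31 were present and all 31 passed the filter on low counts, with 94 to 61203 counts per gene and library. Measured values did not choose them, but they were chosen with earlier results of these data known. The study asked what the zinc finger protein SALL4 binds and regulates in SNU398 cells, a human line derived from a hepatocellular carcinoma. SALL4 binding came from CUT&RUN, where an antibody guides a nuclease that cuts out the DNA beside the protein, with 3 SALL4 libraries. The 3 libraries with normal rabbit IgG are not analysed here. RNA-seq compared 2 libraries of cells transduced with a hairpin against SALL4 (shRNA-2) with 2 libraries of cells transduced with a scrambled hairpin, all taken 72 hours after transduction.

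All cells thus carried a hairpin vector, 1 hairpin sequence stands for the knockdown, and 1 cell line stands for the tumour type. Libraries held 158934493 to 225624957 counts, so the spread between libraries, and not counting error, sets the precision. Nothing in the labels says that replicates came from separate cultures, so a p-value measures only the spread between these libraries. SALL4 itself was at 74.5 and 58.7 CPM (read counts scaled to a common library size) in the scramble libraries and at 21.6 and 18.7 CPM in the knockdown libraries (log2 fold change -1.72, SE 0.19; edgeR adjusted p = 5.84e-06). The defining hepatocyte markers were nearly absent: all 10 checked, ALB, AFP and HNF4A among them, were under 1 CPM in every library. Of 5 epithelial markers 3 were under 1 CPM in every library, while EPCAM lay between 19.7 and 32.4 CPM. The summed level of 6 fibroblast markers, most of it LUM, was 126 to 155 CPM in the knockdown libraries and 176 to 284 CPM in the scramble libraries. Of these 6 markers COL1A1 and THY1 were called lower after knockdown, and their part in the results below was not tested. Leukocyte and endothelial markers summed to less than 1 CPM in each library.

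The p53 protein is a transcription factor that is kept low by MDM2 and MDM4 and accumulates when DNA is damaged or growth is deregulated. It binds response elements made of a pair of similar 10-base half-sites and switches on genes that halt the cell cycle, repair DNA, adjust metabolism or start apoptosis. Several of its targets, MDM2 and PPM1D among them, restrain p53 in return, which closes a feedback loop. In liver tumours this pathway is one of those most often lost.

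The DNA around the transcription starts shows how such elements look in these genes. Windows of 300 bases (250 before and 50 after a start) from RefSeq, build GRCh38.p14, were found for 25 of the 31 genes, 37 windows in all. Each was searched on both strands for the p53 half-site consensus decamer, which reads the same on both strands. At least 1 exact half-site stood in 6 of the 37 windows, in PLK2, SESN1, FAS, DDB2, AEN and FDXR, or in 16.2% of them, against 6.63% of all 35116 windows. A pair of exact half-sites with a spacer of up to 13 bases stood in 1 window, that of DDB2, and in 10 of all windows (0.0285%). All windows cover 27305 genes, more than the 20033 protein-coding genes of RefSeq, so genes of other kinds are among them. The 31 listed genes all code for protein. A looser search, added after these sequences had been seen, allowed 2 mismatches over the pair outside the fixed C and G of each half-site and a spacer of at most 1 base. It matched windows of 4 of the 25 genes (16%), against 184 of 27305 genes (0.674%). These genes are listed because they are known p53 targets, and a match is a description and not a site of binding. The matched elements follow, with the half-sites in capitals and the spacer base, where there is one, in lower case.
DDB2 (chr11:47214979-47214999, + strand): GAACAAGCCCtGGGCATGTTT
DDB2, overlapping match (chr11:47214969-47214988, + strand): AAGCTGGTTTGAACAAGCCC
FAS (chr10:88991309-88991328, + strand): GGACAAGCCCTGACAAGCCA
MDM2 (chr12:68808923-68808942, + strand): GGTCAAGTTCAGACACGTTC
AEN (chr15:88621306-88621325, + strand): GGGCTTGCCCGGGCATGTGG
The first DDB2 element is the pair without a mismatch and begins at base 6 after the start. The second shares its first half-site, has 1 mismatch and begins 5 bases before the start. The FAS, MDM2 and AEN elements each carry 2 mismatches and begin 122, 94 and 34 bases before a start. The MDM2 element lies before 2 downstream starts of the gene, near the promoter that is known to respond to p53. A match missing from a window says only that these letters are not in it, since many p53 elements lie in introns or farther upstream.

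The first comparison asked what the pathway's transcripts did when SALL4 was lowered. Of the 31 genes, BTG2 rose and none fell (edgeR quasi-likelihood test, adjusted p under 0.05 over all 25807 genes tested). That is 3.23% of the list called, against 5.55% of all genes tested (2.31% higher and 3.25% lower), so in this fit, which has the group as its only term, the share is no larger than the background. With the replicate number added as a term, edgeR called 8 of the 31 higher (25.8%, against 8.95% of all genes tested) and 1 lower (3.23%, against 10.1%). Nothing in the labels says that equal numbers pair libraries, so the fit without that term is the one used below. Where the term changes the call of a named pathway gene, this is said. In bulk RNA, a change in the share of cells that express a gene and a change in its RNA per cell cannot be told apart. At an unadjusted p under 0.05, 5 of the 31 were higher, where 8.64% of all genes were, and 1 was lower, where 9.5% were. The share of the list thus lay above the background for higher genes and below it for lower genes. Both directions together made 19.4% of the list against 18.1% of all genes. DESeq2 called 1 gene of the list higher and 0 lower, beside 1948 of all 25807 genes in either direction. Over the list the fold changes had a log2 median of 0.09, beside 0.00153 over all genes tested. Above 0 were 21 of the 31 values, beside 12945 of all 25807. The other 30 genes ranged from -0.43 (MDM2) to 0.56 (SESN2) on the log2 scale, with standard errors from 0.18 to 0.40 and adjusted p-values from 0.128 to 0.994 by edgeR.

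**Figure D1:**
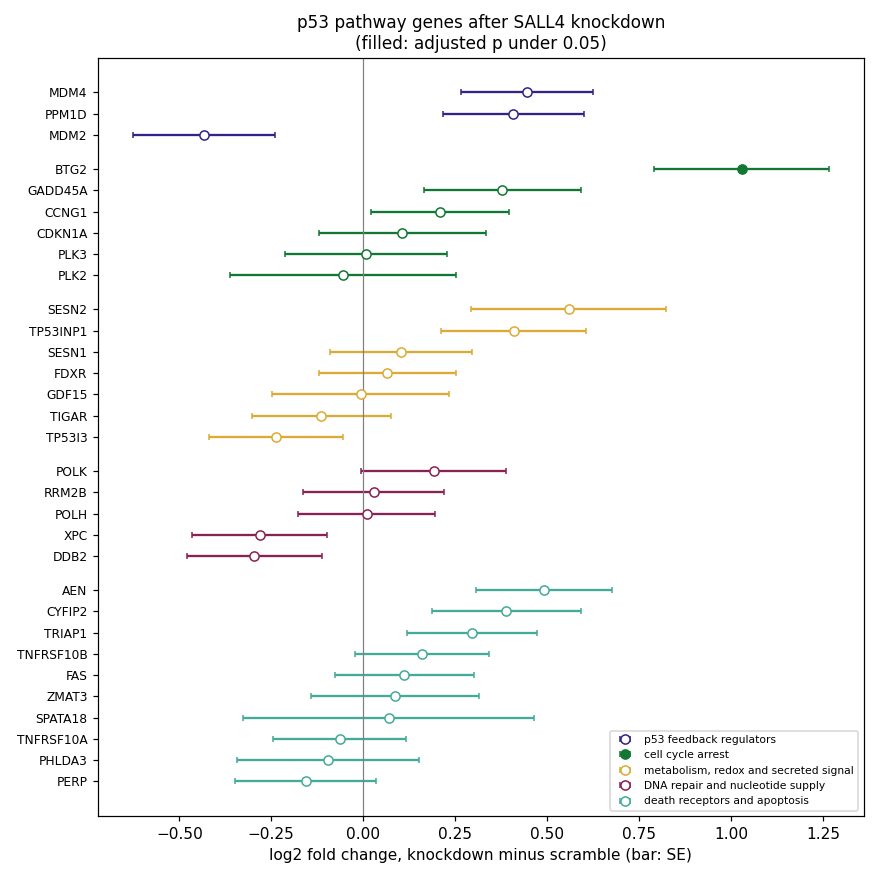
Fitted log2 fold change (knockdown minus scramble, x axis) of each of the 31 p53 pathway genes, grouped by role; points are estimates, bars are 1 SE, and filled points have an adjusted p under 0.05. BTG2 is the filled point, at 1.03, and the other estimates lie between -0.43 and 0.56.

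The feedback regulators did not move together. MDM2, the ubiquitin ligase that marks p53 for degradation, was at 260.0 and 192.6 CPM in the scramble libraries and at 185.8 and 149.5 CPM in the knockdown libraries. Both knockdown values were below both scramble values, with knockdown replicate 1 close under scramble replicate 2. The log2 fold change was -0.43 (SE 0.19; edgeR adjusted p = 0.228), so MDM2 did not pass. MDM4, the relative of MDM2 that masks the activation domain of p53, was at 69.8 and 59.8 CPM with the scrambled hairpin and at 94.2 and 82.3 CPM with the SALL4 hairpin. Here both knockdown values were the higher ones, at a log2 change of 0.45 (edgeR adjusted p = 0.168, SE 0.18). PPM1D, the phosphatase WIP1 that removes activating phosphates from p53 and its kinases, was at 43.98 and 32.6 CPM against 49.8 and 51.8 CPM (here and below, scramble values stand first and knockdown values after "against"). Its log2 fold change was 0.41 (SE 0.19; edgeR adjusted p = 0.251). None of the 3 regulators passed in edgeR or in DESeq2 with the group as the only term, where 3 of 3 had an unadjusted p under 0.05 in edgeR. With the replicate term all 3 passed, MDM4 (edgeR adjusted p = 0.0115) and PPM1D (0.0111) higher and MDM2 (0.0466) lower.

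**Figure D2:**
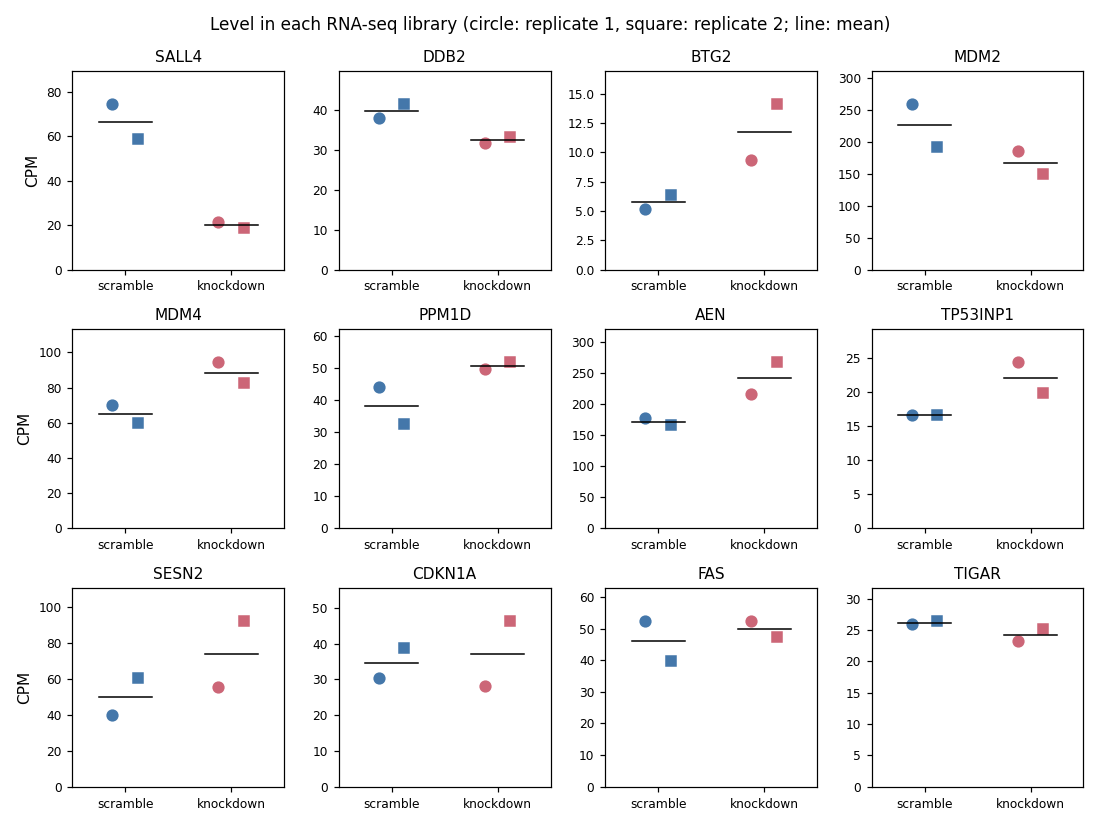
CPM (y axis, from 0) of 12 genes in each of the 4 RNA-seq libraries; circles are replicate 1, squares are replicate 2 and lines are group means. The groups stand apart for SALL4 and BTG2, lie close for MDM2, and overlap for SESN2, CDKN1A and FAS.

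Among the genes of cell cycle arrest, BTG2, an antiproliferative cofactor of transcript deadenylation, was the one that changed. It was at 5.16 and 6.33 CPM in the scramble libraries and at 9.31 and 14.1 CPM in the knockdown libraries, from 1014 and 1006 to 1871 and 3078 counts. The groups did not overlap, but knockdown replicate 2 lay far above knockdown replicate 1. BTG2 (chromosome 1, 203305519 to 203309602) rose 2.04-fold, and the log2 change was 1.03 (edgeR adjusted p = 0.0101, SE 0.24). Leaving out knockdown replicate 2 brought this to 0.69 (edgeR adjusted p = 0.215), and leaving out scramble replicate 1 to 0.89 (adjusted p = 0.0735), so that the call rests on both libraries. With a filter of 5 CPM the adjusted p was 0.0498, and with other filters, scalings, tables, tools or 1 library fewer it lay between 2.7e-04 and 0.215.

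CDKN1A, the p21 inhibitor of cyclin-dependent kinases and the best known target of p53, showed no such rise. Its level was 30.3 and 38.8 CPM in the scramble libraries and 28.1 and 46.3 CPM in the knockdown libraries. The lowest and the highest values were both knockdown libraries, so the groups overlapped fully. The log2 fold change was 0.11 (SE 0.23; edgeR adjusted p = 0.885). GADD45A, a stress sensor that acts on cell cycle checkpoints, was at 13.04 and 16.4 CPM against 15.9 and 22.4 CPM (log2 fold change 0.38, edgeR adjusted p = 0.372). Its knockdown replicate 1 fell between the scramble libraries. GADD45A passed with the replicate term (edgeR adjusted p = 0.0314). The cyclin G1 gene CCNG1 (0.21) and the polo-like kinases PLK2 (-0.05) and PLK3 (0.01) had overlapping groups too. PLK2 was at 4.67 and 2.18 CPM in the scramble libraries, on either side of both knockdown values of 3.41 and 3.20 CPM.

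The genes of metabolism, redox balance and secreted signals held the largest value short of the threshold. SESN2, a leucine sensor that restrains mTORC1, was at 39.8 and 60.2 CPM in the scramble libraries and at 55.2 and 92.1 CPM in the knockdown libraries. In each group replicate 2 was the high one, and knockdown replicate 1 lay below scramble replicate 2. The log2 fold change was 0.56 (SE 0.26; edgeR adjusted p = 0.302). It passed without knockdown replicate 1 (log2 fold change 0.88, edgeR adjusted p = 0.0222), without scramble replicate 2 (0.89, 0.0165) with no filter (0.57, 0.0418) and with the replicate term (0.54, 9.89e-04). SESN1, the other sestrin listed, was at 19.4 and 20.02 CPM against 21.9 and 20.4 CPM, a log2 fold change of 0.10 with an SE of 0.19.

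TP53INP1, a stress-induced partner of p53 and of autophagy proteins, was nearly the same in both scramble libraries, at 16.6 and 16.7 CPM. It was at 24.4 and 19.9 CPM in the knockdown libraries, with a log2 fold change of 0.41 (edgeR adjusted p = 0.272, SE 0.20). With the replicate term TP53INP1 passed (edgeR adjusted p = 0.0151). TIGAR, a fructose-bisphosphatase that slows glycolysis, was at 25.9 and 26.4 CPM against 23.2 and 25.2 CPM (log2 fold change -0.11, edgeR adjusted p = 0.840). The quinone reductase TP53I3 had -0.24, the ferredoxin reductase FDXR 0.07 and the secreted cytokine GDF15 -0.01, all as log2 fold changes. GDF15 ranged from 11.3 to 19.1 CPM within the knockdown group, which encloses both scramble values of 13.3 and 17.2 CPM.

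The 5 genes of DNA repair and nucleotide supply stayed between -0.30 and 0.19 on the log2 scale, and none had an unadjusted p under 0.05. The nucleotide excision repair genes stood lowest of them. XPC, which recognises distorted DNA, was at 38.2 and 39.0 CPM in the scramble libraries and 30.6 and 32.9 CPM in the knockdown libraries, which is a log2 change of -0.28 (edgeR adjusted p = 0.459, SE 0.18). DDB2, which finds ultraviolet damage and carries the exact paired half-sites shown above, was at 38.0 and 41.5 CPM against 31.6 and 33.1 CPM, and the log2 change was -0.30 (edgeR adjusted p = 0.431, SE 0.18). In both genes the groups did not overlap, and in neither did the difference pass the test. The translesion polymerases POLK (0.19) and POLH (0.01) and the ribonucleotide reductase subunit RRM2B (0.03) had log2 fold changes near 0. RRM2B was at 94.9 and 72.1 CPM with the scrambled hairpin and 96.3 and 74.0 CPM with the SALL4 hairpin.

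Of the 10 genes of death receptors and apoptosis, AEN came nearest to the threshold. AEN, a nuclease that digests DNA in apoptosis, was at 178.3 and 165.9 CPM in the scramble libraries and 216.5 and 267.4 CPM in the knockdown libraries. Both knockdown values were higher, with a log2 fold change of 0.49 (edgeR adjusted p = 0.128, SE 0.18). CYFIP2, a subunit of the WAVE complex (0.39), and TRIAP1, which protects cells from apoptosis (0.30), also had groups that did not overlap, with adjusted p-values of 0.319 and 0.412. With the replicate term AEN (edgeR adjusted p = 0.0202) and CYFIP2 (0.0211) passed. TRIAP1 had the tightest replicates of the list, 49.6 and 49.8 CPM against 61.3 and 60.7 CPM. The death receptor FAS was at 52.4 and 39.8 CPM in the scramble libraries and 52.4 and 47.2 CPM in the knockdown libraries (log2 fold change 0.11, SE 0.19). The TRAIL receptors TNFRSF10A (-0.06) and TNFRSF10B (0.16), the desmosomal protein PERP (-0.16), the AKT inhibitor PHLDA3 (-0.09), the RNA-binding ZMAT3 (0.09) and the mitophagy gene SPATA18 (0.07) had no unadjusted p under 0.05. SPATA18 was the least abundant in counts, with 94 to 224 per library, and had the widest SE, 0.40.

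Counted over the whole list, 9 genes had both knockdown libraries above both scramble libraries, 29% of the list against 24.2% of all genes tested. In 6 genes both were below, 19.4% against 22.9%. Both of these shares are near the background. Compared within equal replicate numbers, knockdown was above scramble in both numbers for 15 genes, 48.4% against 33.8% of all genes tested. It was below in both for 7, 22.6% against 33.4%. These shares lie farther from the background, and the labels do not say that equal numbers pair libraries. The spread within the groups followed the replicate numbers in many members. Replicate 2 was above replicate 1 in both groups for 15 of the 31 genes and below it in both for 8, so that 74.2% had the same order in both groups, against 62.1% of all genes tested. GDF15 (0.76), SESN2 (0.74), CDKN1A (0.72), PHLDA3 (0.69) and BTG2 (0.60) had the largest log2 differences of knockdown replicate 2 over replicate 1. In the scramble group the same genes differed by 0.37, 0.60, 0.35, 0.47 and 0.29. The part of these differences in the group comparison was not tested here.

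**Figure D3:**
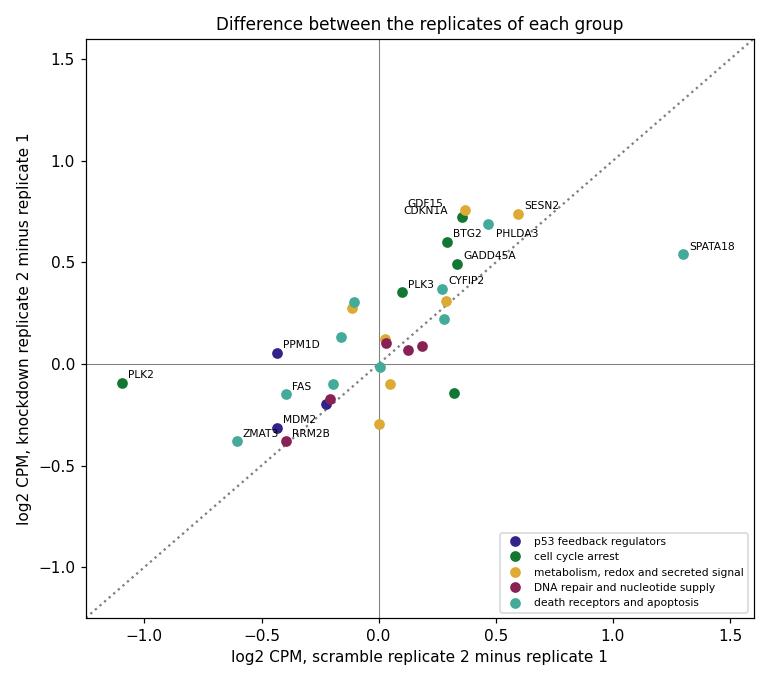
Difference in log2 CPM between replicate 2 and replicate 1 of the scramble group (x axis) and of the knockdown group (y axis) for the 31 p53 pathway genes, coloured by role; the dotted line marks equal differences. CDKN1A, GDF15, SESN2 and PHLDA3 lie to the upper right of 0, while ZMAT3, MDM2 and RRM2B lie to the lower left.

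The authors' deposited table lists all 31 genes with its own fold changes and p-values. At an adjusted p under 0.05 the authors' deposited table calls 9 of them higher and 3 lower, or 29% and 9.68% of the list, where it calls 17.2% and 19.8% of its 15141 genes. It lists BTG2 at a log2 fold change of 1.02, SESN2 at 0.54, AEN at 0.45, MDM4 and PPM1D at 0.42 each, and MDM2 at -0.38, XPC at -0.30 and DDB2 at -0.28, all called in the authors' deposited table. CDKN1A stands there at 0.08 with an adjusted p of 0.537. For these genes the fold changes of the authors' deposited table are close to those fitted here, while all but BTG2 and CDKN1A differ in call between the table and the fit without the replicate term. XPC and DDB2 did not pass in edgeR with that term either (edgeR adjusted p = 0.119 and 0.09998).

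Other genes of the pathway were taken from a pair of lists of known regulators and known targets, chosen with earlier results of these data known. Of 29 regulators of p53, 28 were tested, and edgeR called 0 of them higher and 0 lower. It called 2.31% of all genes tested higher and 3.25% lower. Their log2 fold changes had a median of 0.09. At an unadjusted p under 0.05 there were 2 higher and 2 lower, where 8.64% of all genes were higher and 9.5% lower. Over both lists DESeq2 called 0 higher and 1 lower. CREBBP, an acetyltransferase that acts on p53, was at 40.5 and 35.2 CPM against 50.03 and 59.3 CPM (log2 fold change 0.53, edgeR adjusted p = 0.0988). With the replicate term CREBBP passed as the 1 regulator called higher (edgeR adjusted p = 9.68e-04). RPL23 was the 1 called lower with that term (log2 fold change -0.49, edgeR adjusted p = 0.0413). Among all genes tested it called 8.95% higher and 10.1% lower. NPM1, a nucleolar protein that can bind MDM2, was at 2835 and 1971 CPM against 1707 and 1613 CPM (log2 fold change -0.53, edgeR adjusted p = 0.162).

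Of 35 further targets 33 were tested, none rose and 1 fell, at a list median of -0.02. Among all genes tested 2.31% were called higher and 3.25% lower. At an unadjusted p under 0.05 there were 2 higher and 3 lower, where 8.64% of all genes were higher and 9.5% lower. The tetraspanin CD82 was at 2.41 and 3.04 CPM against 0.732 and 1.08 CPM, which is a log2 change of -1.58 (edgeR adjusted p = 0.00193, SE 0.30). Both knockdown values of CD82 were well below both scramble values. The autophagy regulator DRAM1 had a log2 fold change of 0.60 and did not pass (SE 0.20, edgeR adjusted p = 0.0786). With the replicate term DRAM1 passed (edgeR adjusted p = 5.95e-05). Of the 33 tested, that term gave 3 called higher and 3 lower, where 8.95% of all genes were higher and 10.1% lower. BBC3, a BCL2 family gene and thus outside these lists, was at 3.30 and 4.34 CPM in the scramble libraries and 10.8 and 12.8 CPM in the knockdown libraries (log2 fold change 1.63, SE 0.23; edgeR adjusted p = 1.07e-04).

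**Figure D4:**
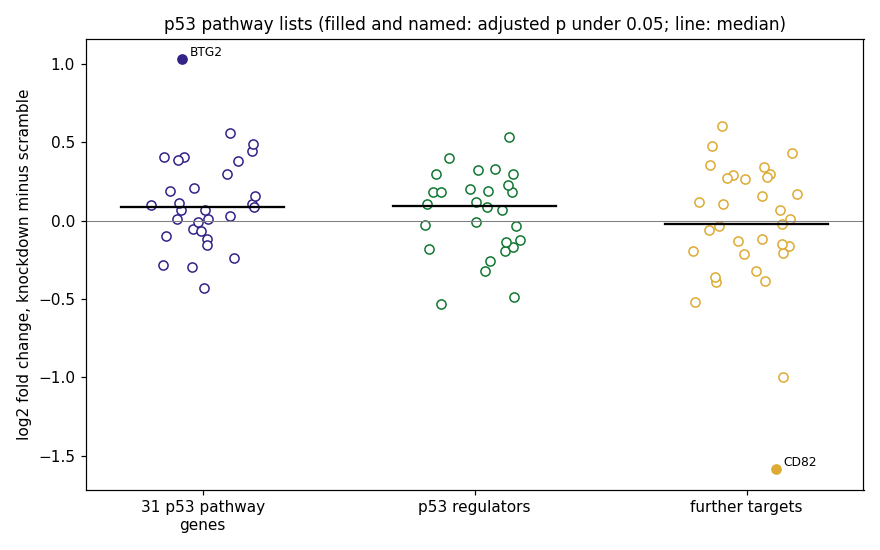
Fitted log2 fold change (y axis, knockdown minus scramble) of the tested genes of the list of 31, of 28 regulators of p53 and of 33 further targets; lines are medians, and filled, named points have an adjusted p under 0.05. BTG2 is the called gene above 0 and CD82 the one below 0.

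The second comparison asked where SALL4 lay relative to these genes. The authors' common list holds 11201 regions merged over the 3 SALL4 libraries. Regions overlapped the RefSeq span of PPM1D, TIGAR, RRM2B and FAS by at least 1 bp, 4 of 31 genes or 12.9%, against 13.9% of 20033 protein-coding genes. The share is near the background. The count was also 4 within 3000 bp of the span (15.2% of protein-coding genes), within 1000 bp of either end (6.21%) and by the region's midpoint (12.2%). Within 1000 bp of either end the list's 12.9% thus lay above the background, and by the other rules it lay near it. The list's genes have a median length of 27599 bp, beside 24130 bp over all protein-coding genes, and longer genes offer more room for a region. They held 7 regions, or 6.52 per Mb of gene span, beside 4.4 per Mb. Among protein-coding genes within the range of the list's lengths, 10.9% held a region, at 4.43 per Mb. BTG2 held none, and its nearest common region lay 278275 bp away. For 21 genes the nearest region was more than 100000 bp from the gene span, and for MDM2 it was 120377 bp and for CDKN1A 1337240 bp away. GADD45A and TRIAP1 had a region outside the span but within 10000 bp, at 6264 and 5046 bp.

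PPM1D and TIGAR had their region over the transcription start. That of PPM1D (chromosome 17, 60598508 to 60601922) has its midpoint 22 bp past the start of the gene span. That of TIGAR (chromosome 12, 4320274 to 4322188) has it 18 bp past the start. These are midpoints of merged regions, and no peak of a single library covered either start. The nearest peak began 0.157 kb past the PPM1D start and ended 0.237 kb before the TIGAR start, both in library 2. RRM2B had a region over one end of its span (chromosome 8, 102237628 to 102240480) and one inside it (102225723 to 102226925). FAS had 3, all inside its span, of which the widest (chromosome 10, 88990874 to 88995088) is 4215 bp wide. It overlaps 2 of the 3 RefSeq start windows of FAS by at least 1 bp, the one with the element shown above among them. Of the 7 regions, this one holds a stretch where the peaks of the 3 libraries coincide, which 1.63% of protein-coding genes have over their span. Another FAS region (88985901 to 88987499) lies before all 3 start windows, the lowest of which begins at 88990548. ACTA2 and FAS-AS1 also overlap the FAS span, and to which gene a region there belongs was not determined. Whether the regions fall on exons or introns was not determined, as no exon annotation was used here.

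Peak heights are the authors' values and come in whole steps of 2.88, 2.64 and 3.3 signal units in libraries 1, 2 and 3. The highest peak in each library under the PPM1D region reached 5, 3 and 4 steps, under the TIGAR region 4, 3 and 5, and under the wide FAS region 5, 5 and 4. The FAS region at the far end of the gene (89014400 to 89016159) reached 6, 3 and 4 steps. None of the 7 regions had a peak above 4 steps in all 3 libraries, a kind of region found over 0.714% of protein-coding genes. In the whole data 66.9%, 96.4% and 95.2% of peaks reached at most 4 steps. The chromosomes also differ: a common region overlapped 31.9% of the protein-coding genes on chromosome 10, where FAS lies, 19.6% on chromosome 12 (TIGAR), 13.7% on chromosome 8 (RRM2B) and 5.39% on chromosome 17 (PPM1D). The part of this difference in the overlap with these genes was not tested. In single libraries, peaks overlapped 14, 30 and 25 of the 31 gene spans in libraries 1, 2 and 3, where 46%, 77.6% and 72.7% of protein-coding genes had one. Peaks per Mb of span were 30.7, 144 and 102 in the list against 27.4, 148 and 112 over protein-coding genes.

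**Figure D5:**
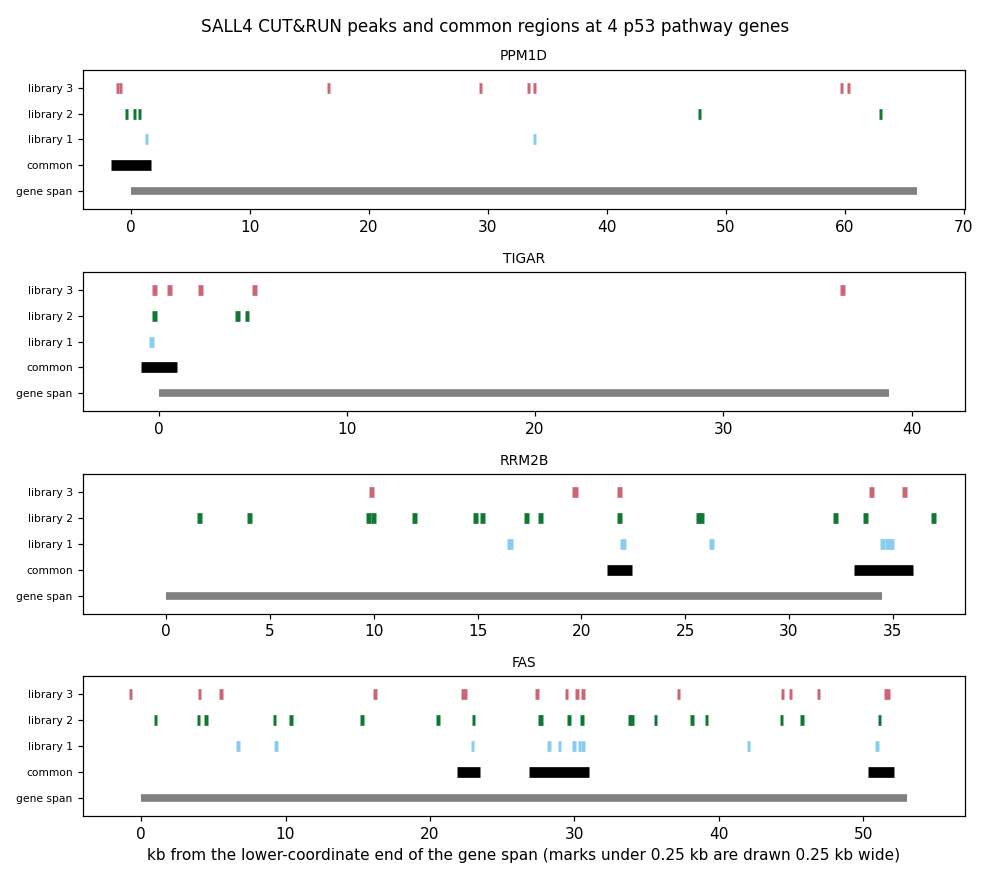
Peaks of the 3 SALL4 libraries and common regions (black) along the spans (grey) of PPM1D, TIGAR, RRM2B and FAS, in kb from the lower-coordinate end of each span; marks under 0.25 kb are drawn 0.25 kb wide. The regions of PPM1D and TIGAR sit at the left end, while the 3 of FAS lie inside the gene.

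The bases before these starts are shown because the series ties SALL4 to an AT-rich motif. The 250 bases before the start are given for the 2 genes with a merged region centred near it. Those for 1 of the 2 FAS starts that the wide region covers, and for BTG2, the gene that rose, come after. The FAS start shown is the one whose window holds the p53 element given above. Capitals mark runs of at least 5 A or T.
PPM1D (chr17:60599943-60600192, + strand): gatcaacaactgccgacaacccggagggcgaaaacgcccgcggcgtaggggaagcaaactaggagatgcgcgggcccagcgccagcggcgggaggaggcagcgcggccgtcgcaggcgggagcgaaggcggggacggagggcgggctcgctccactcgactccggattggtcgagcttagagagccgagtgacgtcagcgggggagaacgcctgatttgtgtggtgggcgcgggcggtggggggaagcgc
TIGAR (chr12:4320963-4321212, + strand): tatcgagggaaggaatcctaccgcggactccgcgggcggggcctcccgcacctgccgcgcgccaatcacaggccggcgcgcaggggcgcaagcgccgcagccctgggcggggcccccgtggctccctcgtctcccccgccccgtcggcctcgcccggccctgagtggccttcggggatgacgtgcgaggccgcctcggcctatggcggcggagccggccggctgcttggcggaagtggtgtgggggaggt
FAS (chr10:88991181-88991430, + strand): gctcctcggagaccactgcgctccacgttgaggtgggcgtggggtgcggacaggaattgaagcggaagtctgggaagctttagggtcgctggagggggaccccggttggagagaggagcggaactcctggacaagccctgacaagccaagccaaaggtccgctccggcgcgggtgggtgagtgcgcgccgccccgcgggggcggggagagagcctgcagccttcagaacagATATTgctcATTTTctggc
BTG2 (chr1:203305269-203305518, + strand): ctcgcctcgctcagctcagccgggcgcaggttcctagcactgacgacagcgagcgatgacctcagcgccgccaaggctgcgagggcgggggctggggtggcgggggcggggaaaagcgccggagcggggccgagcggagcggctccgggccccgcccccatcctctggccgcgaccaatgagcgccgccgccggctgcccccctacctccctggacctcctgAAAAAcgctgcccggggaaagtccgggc
The PPM1D and TIGAR stretches, at 29.6% and 23.2% A and T, hold no such run. The FAS stretch shown holds 2 (34.8% A and T) and the BTG2 stretch 1 (25.2%). The stretch before the other FAS start under the wide region (88990664 to 88990913) holds 0 (38.0%). Of all 35116 stretches of this kind 73.8% hold at least 1. Over the 300-base windows the list's median A and T content was 34%, beside 41.3% over all windows. A common region overlapped 4 of the 37 windows of the list, or windows of 3 of 25 genes (12%), against windows of 3.68% of all genes with one. In both comparisons all windows include those of genes that do not code for protein. The deposited regions are wider than these stretches, and the sequence under the rest of each region was not used here.

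Among the genes with a common region, the log2 fold changes were 0.41 for PPM1D, 0.11 for FAS, 0.03 for RRM2B and -0.11 for TIGAR. The SE was 0.19 for each. The values of FAS, RRM2B and TIGAR are smaller than their SE, so no direction can be read from them. None passed with the group as the only term, and PPM1D passed with the replicate term. BTG2 rose without a common region over its span, and peaks of single libraries numbered 0, 1 and 2 over it.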

How the data were processed

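RNA-seq of 4 SNU398 libraries and CUT&RUN of 3 SALL4 libraries were used; groups and replicate numbers come from the titles. Per the submitters' processing notes, the tools include Trim Galore 0.4.5, STAR, featureCounts, BWA 0.7.17-r1188, SEACR 1.1 and HOMER 4.10, with the build hg38; these sources do not give the strand setting or the annotation release. The deposited per-library tables hold raw counts per gene symbol and were used as they stand; the authors' combined count matrix is an alternative. The authors' deposited comparison table holds, per the file headers, a log2 fold change for each gene, p-values, and log odds as a score. Its log2 fold changes equal a limma-voom fit with group and replicate number within 9.2e-10. The deposited peak files give total and highest signal per peak; the authors' scaling is not known.

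Genes passing filterByExpr entered a robust quasi-likelihood test in edgeR 4.0.16 under R 4.3.3 after TMM scaling, with no term but the group and Benjamini-Hochberg adjustment over all genes; limma 3.58.1 and DESeq2 1.42.0 served the alternatives. SE is the log2 fold change divided by the square root of F. The procedure was tested on simulated data. CPM are on TMM library sizes. Regions were placed on RefSeq spans of GRCh38.p14, the build hg38 stands for. Of the other pathway genes COP1 was found under its older symbol. Another RefSeq gene overlaps 19 of the 31 spans; whether exons or counted reads are shared was not determined. The 31 genes, the lists and the tests were chosen with earlier results of these data known. Named by rule were the feedback regulators, CDKN1A and SALL4, and the called genes of the other lists. So was each of the 31 past an unadjusted p of 0.05 or with a common region. CREBBP, NPM1, RPL23, DRAM1, BBC3, XPC, GADD45A, TRIAP1 and SESN2 were added after their values were seen. DDB2, CYFIP2, SESN1, PLK2, GDF15 and SPATA18 also fall outside the rule and are given with values of their own. The remaining genes of the 31 are given by role. Some genes are not reported here. Alternatives changed the scaling, filter, tool, count table, replicate term, libraries and overlap rule.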

Additional observations from a re-analysis of the deposited data

How the results depend on the processing

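With 2 libraries a group, BTG2 rests on single libraries, as given with its values, and depth did not limit the 31 genes. Replicate numbers are not stated to pair libraries; deviations of same-numbered libraries correlated at 0.205 across genes, with only 2 pairs. With the replicate number as a block, 2309 genes (8.95%) were called higher and 2612 (10.1%) lower. Among the 31 these were 8 and 1 (BTG2, MDM4, PPM1D, GADD45A, SESN2, TP53INP1, AEN and CYFIP2 higher, MDM2 lower). Among the 28 regulators and 33 further targets tested they were 4 and 4. With no filter, 2 of the 31 and 1 other pathway gene were called higher, beside 1934 of 42018 genes called in either direction. A filter of 5 CPM left 294 genes higher and 437 lower, with 0 other pathway genes lower. CD82, at most at 3.04 CPM, did not enter that test, and 29 of the 31 genes did. DESeq2, RLE scaling and the combined matrix each called 1 of the 31 higher and 0 lower. In either direction they called 1948 of 25807, 1555 of 25807 and 1021 of 19420 genes.

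Leaving out 1 library in turn gave 308 to 408 genes higher and 492 to 783 lower. Among the 31 it gave 0 to 2 higher: 0 without knockdown replicate 2 or scramble replicate 1, and 2 without knockdown replicate 1 or scramble replicate 2. It gave 0 other pathway genes higher and 1 lower each time, and a list median of 0.0348 to 0.1745. Of the common regions, 1 gene (FAS) held one with a position covered in all 3 libraries and 0 held one above 4 steps in all 3.

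Genes near 0 changed sign without being called. With no filter GDF15 was at 0.0085. Under the replicate block PLK2 was at 0.038 and PLK3 at -0.0024. In the combined matrix PLK3 was at -0.0125, GDF15 at 0.0124, POLH at -0.0426 and SPATA18 at -0.0729. Leaving out 1 library, log2 fold changes ranged from -0.31 to 0.42 for CDKN1A, -0.0604 to 0.32 for FAS, -0.11 to 0.23 for FDXR, -0.44 to 0.32 for GDF15, -0.49 to 0.21 for PHLDA3, -0.49 to 0.60 for PLK2, -0.19 to 0.17 for PLK3, -0.0821 to 0.12 for POLH, -0.17 to 0.24 for RRM2B, -0.45 to 0.87 for SPATA18, -0.14 to 0.0177 for TNFRSF10A and -0.17 to 0.42 for ZMAT3. The cause was not tested.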
